A study of Mus musculus with 12 samples.

Results

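A set of 10 genes that amacrine cells use to make, load and recover their transmitters, or that keep amacrine identity, were followed in both retinas of 6 p16-3MR mice. They are Gad1, Gad2, Slc32a1, Slc6a9, Chat, Slc18a3, Slc5a7, Th, Pax6 and Tfap2a, given as a list of names. All 10 were found among the 24340 rows of the table, and all 10 were above 0 in every library. RNA from whole retinas was sequenced on day 3 after the intraocular pressure (IOP) of one eye had been held at 85 to 90 mm Hg for 60 min by saline infusion, and the other eye of the same mouse served as control (CTRL). Mice 1, 2 and 5 received ganciclovir (GCV, 25 mg/kg once a day, intraperitoneally), and mice 3, 4 and 6 received PBS. The 12 libraries thus formed 4 groups of 3 retinas, CTRL, IOP, CTRL GCV and IOP GCV, all from p16-3MR mice of 12 to 16 weeks. In this line the regulatory region of p16 drives a fusion of luciferase, red fluorescent protein and a viral thymidine kinase, so GCV becomes toxic only in cells in which that region is active. Animals without the transgene are not among these libraries, and an effect of GCV itself cannot be told apart from an effect of removing p16-expressing cells.

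Amacrine cells are the inhibitory interneurons of the inner retina, and most of them release either GABA or glycine onto bipolar cells, ganglion cells and each other. GABA is made from glutamate by the glutamic acid decarboxylases Gad1 and Gad2, and the vesicular transporter Slc32a1 loads both GABA and glycine. Glycinergic amacrine cells take glycine up again through Slc6a9. The starburst amacrine cells, which shape the direction selectivity of ganglion cells, also release acetylcholine and carry the cholinergic set Chat, Slc18a3 and Slc5a7. A rare dopaminergic amacrine type is marked by Th, the rate-limiting enzyme of dopamine synthesis. Pax6 and Tfap2a are transcription factors of amacrine cells, and Pax6 is also used by ganglion cells, horizontal cells and Müller glia.

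The members lie on 6 chromosomes (build GRCm38.p6, the assembly of mm10), and 2 of them share a locus. Slc18a3, on chromosome 14 from 32462437 to 32464850 on the minus strand, lies within Chat, from 32408203 to 32465909 on the same strand, and their annotated exons share no base. Exons of other genes on the opposite strand cover 24.9% of the exon bases of Slc32a1 (Gm14205), and Ccdc24 alone covers 27.8% of those of Slc6a9. Smaller opposite-strand overlaps were found for Tfap2a, up to 7.75% (Gm26688). The libraries were stranded, but whether the counting used strand is not stated, so for these 3 genes reads of the overlapping partner cannot be told apart. The RefSeq windows of 250 bases before each start were searched for the letters GCCNNNGGC, a motif of the AP-2 family to which Tfap2a belongs, and for TATAAA, the TATA box, on both strands. AP-2 matches were in 3 of the 14 member windows (Gad2, Slc18a3 and Pax6) against 13.7% of 32851 windows of all genes. TATA matches were in 2 of the 14 (Gad1 and Slc5a7) against 12.4%. The 4 sequences shown are of the AP-2 windows and of the Gad1 window, for 4 members that were called lower after IOP. Only the stretch of each window that no annotated exon covers is given, as 5′ to 3′ on the gene's strand, and capitals mark AP-2 matches or, in Gad1, the TATA match read on the other strand. In Slc18a3 the first 2 AP-2 matches overlap.
Gad1, chr2:70561879-70562041, plus strand: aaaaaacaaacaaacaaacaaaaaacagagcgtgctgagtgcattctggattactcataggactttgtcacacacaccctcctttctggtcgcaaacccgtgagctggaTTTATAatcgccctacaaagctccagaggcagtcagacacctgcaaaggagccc
Gad2, chr2:22622077-22622204, plus strand: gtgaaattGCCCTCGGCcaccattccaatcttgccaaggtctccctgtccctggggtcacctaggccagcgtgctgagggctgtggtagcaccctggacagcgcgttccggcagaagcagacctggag
Slc18a3, chr14:32464851-32465041, minus strand: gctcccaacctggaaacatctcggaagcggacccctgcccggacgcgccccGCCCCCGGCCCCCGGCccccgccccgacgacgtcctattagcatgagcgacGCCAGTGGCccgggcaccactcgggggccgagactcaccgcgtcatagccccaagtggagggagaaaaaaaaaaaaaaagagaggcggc
Pax6, chr2:105668646-105668895, plus strand: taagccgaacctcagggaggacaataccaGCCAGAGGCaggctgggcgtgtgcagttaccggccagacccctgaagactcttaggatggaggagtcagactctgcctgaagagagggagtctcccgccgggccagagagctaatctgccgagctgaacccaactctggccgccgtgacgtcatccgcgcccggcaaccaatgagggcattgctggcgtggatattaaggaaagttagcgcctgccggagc
The windows describe letters only, and binding of any factor was not measured.

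In the 6 control retinas the members covered a wide range of FPKM (fragments per kilobase of exon, relative to library size, a level that can be compared between genes). Pax6 was highest, with a median of 105 FPKM (range 87.6 to 119), above Gad1 in all 6 retinas. Gad1, at 64.7 FPKM (48.5 to 80.9), and Slc6a9, at 52.3 FPKM (48.1 to 56.1), overlapped. Slc32a1 followed at 26.2 FPKM (21.7 to 36). Tfap2a at 12.7 FPKM and Gad2 at 11 FPKM were not ordered, since Tfap2a was the higher in 3 of 6 retinas. The cholinergic genes came next, with medians of 5.91 FPKM for Chat, 3.62 FPKM for Slc18a3 and 2.78 FPKM for Slc5a7. Their ranges overlapped, but Chat exceeded Slc18a3 in all 6 control retinas, and Slc18a3 exceeded Slc5a7 in all 6. Th had the lowest median, at 1.38 FPKM (0.567 to 2.495), but its range overlapped that of Slc5a7, which exceeded it in 5 of 6. The summed level of the 10 members was 0.0517 to 0.0676% of all FPKM in CTRL retinas and 0.0619 to 0.0782% in CTRL GCV retinas. In IOP retinas it was 0.0215 to 0.0617%, and in IOP GCV retinas 0.0223 to 0.0447%.

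Depth was estimated from the smallest values in each library, since the table holds no counts. It came to 6860000 to 8910000 fragments in 11 libraries and to 3970000 in the IOP retina of mouse 6, where 14844 genes were above 0 against 16044 to 16593 in the others. Rod genes, which mark the retina, held 10.8 to 12.6% of all FPKM in CTRL and 7.96 to 9.73% in IOP retinas, without overlap, and 9.34 to 11% in CTRL GCV and 7.21 to 10.6% in IOP GCV retinas. The rod share was lower in the IOP retina of 5 of 6 mice, all but mouse 2. At these depths Gad1, Slc6a9 and Pax6 rested on at least 169 estimated fragments in every library. Chat rested on about 6.04 fragments in the IOP retina of mouse 6, Slc18a3 on about 5.87 in the IOP GCV retina of mouse 5, and Th on 4.39 to 33.5 throughout. Values of these 3 genes in those retinas carry a large counting error.

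**Figure D1:**
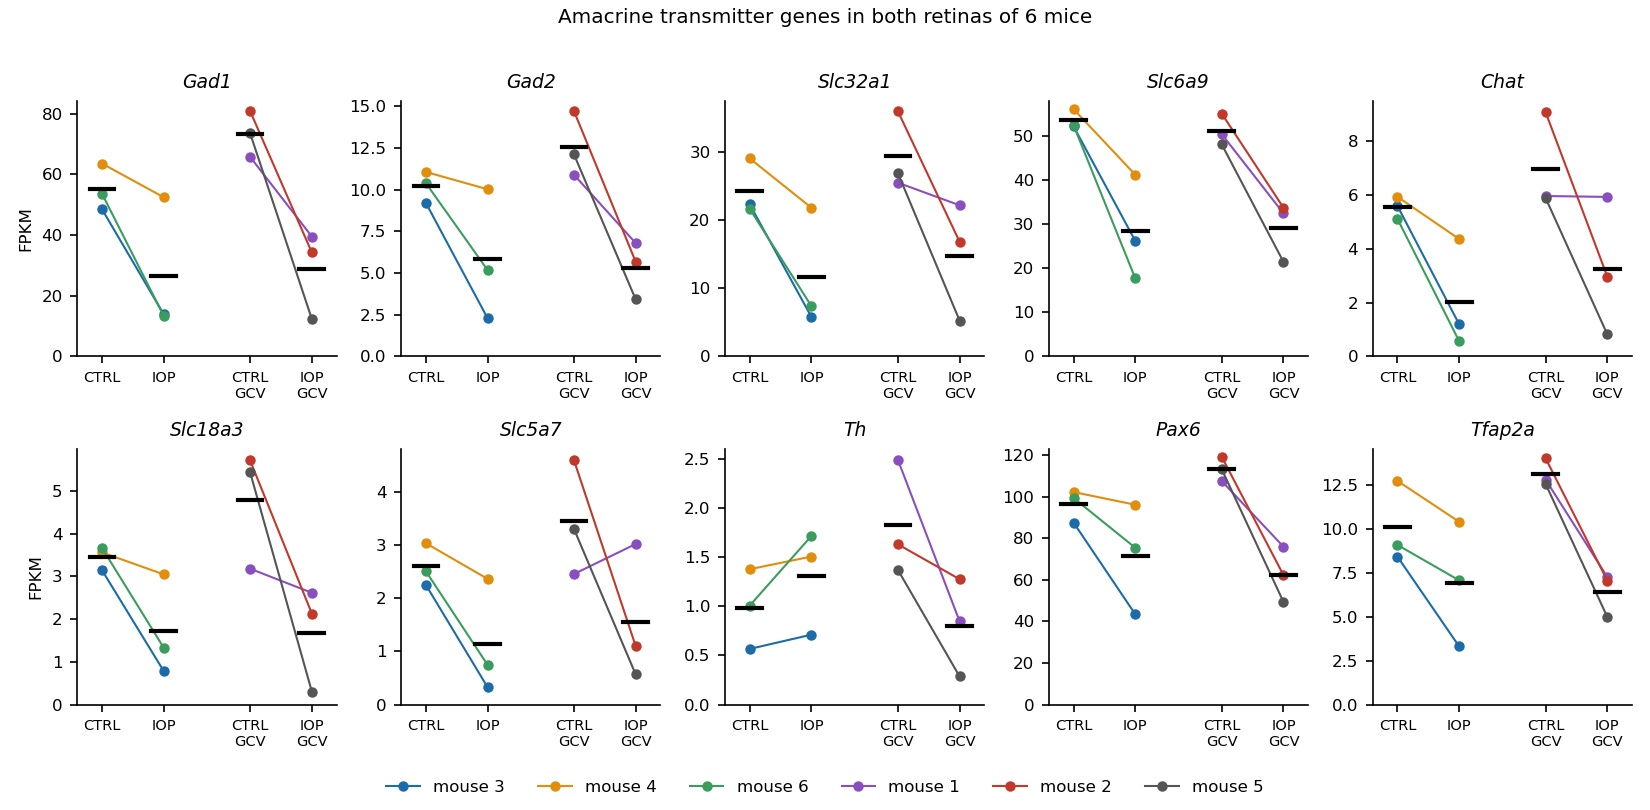
Level of each member in FPKM (vertical axis, linear, starting at 0) in CTRL and IOP retinas without GCV and with GCV. Points are retinas, lines join both eyes of a mouse, and black bars are means of 3 retinas. Lines fall from CTRL to IOP in all 6 mice for 8 of the 10 genes, barely so for Chat in mouse 1. They rise in mouse 1 for Slc5a7, and rise in the 3 mice without GCV and fall in the 3 with GCV for Th.

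The first question was how the transmitter genes differed between the IOP retina and its control. Of the 10 members, 8 were lower in the IOP retina of all 6 mice, Slc5a7 in 5 of 6 and Th in 3 of 6. Chat, one of the 8, was almost equal in both eyes of mouse 1. It rested there on about 127 estimated fragments in the IOP GCV retina and 121 in its control. Of all 18509 genes above 0 in at least 1 library, 10.1% were lower in the IOP retina of all 6 mice. Over both treatments, 6 of 10 members fell by limma (log2(FPKM + 1), Benjamini-Hochberg adjusted over all genes, threshold 0.05), namely Gad1, Gad2, Slc6a9, Slc18a3, Pax6 and Tfap2a, and none rose. Of all genes, 12.2% were called in this comparison, 5.44% as lower. At an unadjusted p under 0.05 there were 9 members, all but Th, with 30.3% of all genes. The median log2 fold change of the members was -0.95, against 0.01 over all genes. These are bulk retinas, so fewer amacrine cells, less RNA per cell and changes in other cells that use the same genes, as for Pax6, cannot be told apart.

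Gad1 makes GABA throughout the cell. Its level was 48.5, 63.6 and 53.7 FPKM in the CTRL retinas of mice 3, 4 and 6, and 13.9, 52.5 and 13.35 FPKM in their IOP retinas. In mice 1, 2 and 5 it was 65.8, 80.9 and 73.6 FPKM in CTRL GCV and 39.5, 34.3 and 12.3 FPKM in IOP GCV retinas. The IOP retina of mouse 4 stayed within the CTRL range, while the other 5 IOP retinas were below every control retina. In mouse 5 the IOP level was 16.8% of that of the other eye, in mouse 4 it was 82.5%. The log2 fold change over both treatments was -1.39 ± 0.36 (SE, both eyes of 6 mice, not paired in this fit, adjusted p = 0.0365 by limma). With the mouse as a block, which pairs the eyes, the SE was 0.30 (adjusted p = 0.0463 by limma).

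Gad2 makes GABA at synaptic terminals. It was at 9.20, 11.1 and 10.4 FPKM in CTRL and 2.29, 10.0 and 5.175 FPKM in IOP retinas of mice 3, 4 and 6. With GCV it was at 10.9, 14.7 and 12.1 FPKM in CTRL and 6.79, 5.67 and 3.42 FPKM in IOP retinas of mice 1, 2 and 5. Mouse 4 again kept most of its level (90.7% of the other eye), and mouse 3 the least (24.8%). The fold change was -1.01 ± 0.26 on the log2 scale (adjusted p = 0.0366, limma). The ratio of Gad1 to Gad2 was 5.17 to 6.08 in the 6 control retinas and 5.24 to 6.08 in 4 IOP retinas. It was 2.58 in the IOP retina of mouse 6 and 3.61 in that of mouse 5, so in these 2 mice Gad1 was reduced further than Gad2.

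Slc32a1 fills the vesicles of both GABA and glycine cells. In mice 3, 4 and 6 it stood at 22.3, 29.1 and 21.7 FPKM in CTRL and 5.78, 21.8 and 7.37 FPKM in IOP retinas. In mice 1, 2 and 5 it stood at 25.5, 36.0 and 26.9 FPKM in CTRL GCV and 22.2, 16.8 and 5.265 FPKM in IOP GCV retinas. The IOP retina was the lower in every mouse, but the IOP retinas of mice 4 and 1 reached the level of the lowest control retinas. The log2 fold change of -1.17 ± 0.36 did not pass (adjusted p = 0.0596, limma).

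Slc6a9 clears glycine from around glycinergic synapses. It was the steadiest member in control retinas, at 52.2, 56.1 and 52.4 FPKM in CTRL and 50.4, 55.1 and 48.1 FPKM in CTRL GCV. In IOP retinas it was 26.2, 41.2 and 17.7 FPKM in mice 3, 4 and 6, and with GCV 32.45, 33.7 and 21.4 FPKM in mice 1, 2 and 5. All 6 IOP retinas were below all 6 control retinas, mouse 4 included. The fold change was -0.89 ± 0.18 on the log2 scale, with the smallest adjusted p of the members (0.015, limma).

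Among the cholinergic genes, Chat makes acetylcholine. Its level was 5.59, 5.94 and 5.11 FPKM in CTRL and 1.19, 4.36 and 0.566 FPKM in IOP retinas of mice 3, 4 and 6. With GCV it was 5.965, 9.08 and 5.89 FPKM in CTRL and 5.93, 2.97 and 0.819 FPKM in IOP retinas of mice 1, 2 and 5. Mouse 1 thus kept 99.4% of the level of its other eye, while mouse 6 kept 11.1% and mouse 5 kept 13.9%. The log2 fold change of -1.20 ± 0.36 did not pass (adjusted p = 0.0543, limma).

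Slc18a3 loads acetylcholine into vesicles. It was at 3.15, 3.56 and 3.67 FPKM in CTRL and 0.784, 3.05 and 1.33 FPKM in IOP retinas of mice 3, 4 and 6, without overlap. With GCV it was at 3.18, 5.72 and 5.44 FPKM in CTRL and 2.62, 2.13 and 0.304 FPKM in IOP retinas of mice 1, 2 and 5, also without overlap. The fold change was -1.0 ± 0.29 on the log2 scale (adjusted p = 0.0471, limma). With the mouse as a block, which pairs both eyes, the adjusted p was 0.0803 and the other 5 still passed, where 7.3% of all genes did. With a pseudocount of 0.1 it was 0.0621, at a log2 fold change of -1.49.

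Slc5a7 takes choline back into cholinergic terminals. In mice 3, 4 and 6 its level was 2.26, 3.04 and 2.51 FPKM in CTRL and 0.327, 2.37 and 0.748 FPKM in IOP retinas. In mice 1, 2 and 5 it was 2.46, 4.61 and 3.31 FPKM in CTRL GCV and 3.03, 1.10 and 0.567 FPKM in IOP GCV retinas. Mouse 1 was the exception, with 123% of the level of its other eye. The fold change of -0.87 ± 0.28 (log2) did not pass (adjusted p = 0.0656, limma). For all 3 cholinergic genes, mice 1 and 4 kept the most, with Slc18a3 at 82.2% of its control in mouse 1 and 85.6% in mouse 4.

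The ratio of Chat to Slc18a3, whose genes overlap, was 1.08 to 1.87 in control retinas. In IOP retinas it was 1.39 to 2.27 in mice 1, 2, 3 and 4, 0.425 in mouse 6 and 2.69 in mouse 5. The latter retinas are those with about 6.04 fragments for Chat and 5.87 for Slc18a3, and no common direction was seen over the 6 mice (mean difference of the log2 ratio -0.13 ± 0.98, SD, n = 6).

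Th did not follow the other members. It was at 0.567, 1.38 and 1.01 FPKM in CTRL and 0.712, 1.51 and 1.72 FPKM in IOP retinas of mice 3, 4 and 6, higher in each IOP retina. With GCV it was at 2.495, 1.63 and 1.37 FPKM in CTRL and 0.849, 1.28 and 0.287 FPKM in IOP retinas of mice 1, 2 and 5, lower in each. The CTRL GCV retinas held more Th than 2 of the 3 CTRL retinas. The log2 fold change over both treatments was -0.23 ± 0.19 (adjusted p = 0.456, limma). Differences of this gene rest on 4.39 to 33.5 fragments per library.

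Of the transcription factors, Pax6 was at 87.6, 102 and 99.4 FPKM in CTRL and 43.4, 96.2 and 75.45 FPKM in IOP retinas of mice 3, 4 and 6. With GCV it was at 108, 119 and 113 FPKM in CTRL and 76.0, 62.3 and 49.4 FPKM in IOP retinas of mice 1, 2 and 5. It fell by 0.68 ± 0.18 on the log2 scale (adjusted p = 0.0361, limma), the smallest difference among the called members. The ratio of Gad1 to Pax6 was lower in the IOP retina of all 6 mice, by 0.19 (mouse 4) to 1.61 (mouse 6) on the log2 scale, so Gad1 was reduced further than Pax6 in each. This pair of genes was picked after the values had been seen, and the difference is given without a test.

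Tfap2a was at 8.42, 12.7 and 9.09 FPKM in CTRL and 3.31, 10.4 and 7.07 FPKM in IOP retinas of mice 3, 4 and 6. With GCV it was at 12.8, 14.0 and 12.6 FPKM in CTRL and 7.26, 7.06 and 4.99 FPKM in IOP retinas of mice 1, 2 and 5. The groups overlapped without GCV, through mouse 4, and not with GCV. It fell by 0.76 ± 0.22 on the log2 scale (adjusted p = 0.0477, limma).

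Which members passed depended on single libraries. Without any 1 of the 3 CTRL retinas, the 3 CTRL GCV retinas or the IOP GCV retina of mouse 5, Slc6a9 alone of the members passed, with 4.51 to 6.72% of all genes. Without the IOP retina of mouse 6 or the IOP GCV retina of mouse 2 there were 2 called members, with 10.2 and 10.8% of all genes, and without the IOP retina of mouse 3 there were 3, with 6.97%. Without the IOP GCV retina of mouse 1 there were 8, with 11.8% of all genes, and without the IOP retina of mouse 4 there were 9, with 24.5%. The directions did not change in any of these 12 fits.

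**Figure D2:**
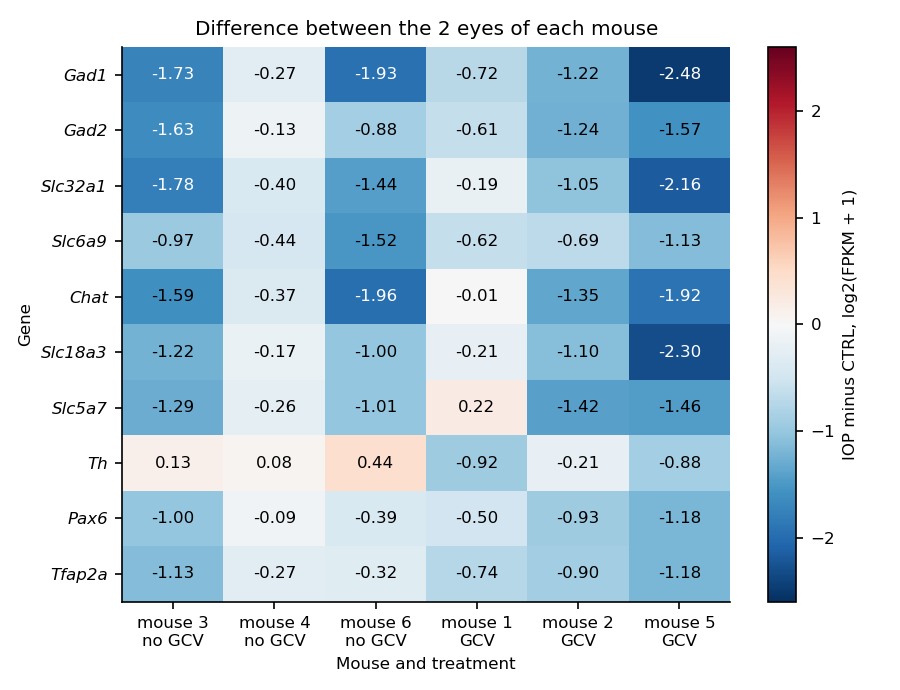
Difference between the IOP and the CTRL retina of each mouse in log2(FPKM + 1), for each member (rows) and mouse (columns), on a scale from blue (lower after IOP) to red (higher), with the values written in. Mouse 4 shows small differences throughout (Gad1 -0.27), mouse 5 large ones (Gad1 -2.48), and only Th and, in mouse 1, Slc5a7 are above 0.

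The size of the difference varied between mice. The median over the 10 members was -0.27 in mouse 4 and -0.55 in mouse 1 (log2, IOP minus CTRL). It was -1.01 in mouse 6, -1.08 in mouse 2, -1.26 in mouse 3 and -1.51 in mouse 5. Both treatments thus held a mouse with small and mice with large differences. The IOP groups were accordingly spread out, with a median SD of the members of 0.70 (log2) in IOP and 0.56 in IOP GCV retinas against 0.14 in CTRL and 0.23 in CTRL GCV retinas. Over the 12910 genes that averaged 1 FPKM or more the median SD was 0.34, 0.20, 0.12 and 0.14 in the same order. Over the 12 libraries the 9 members other than Th varied together (Pearson's r of log2(FPKM + 1) between 0.77 and 0.98, median 0.92 over 36 pairs). Th correlated with them at 0.32 to 0.67. These coefficients are descriptions, since all genes share the 12 libraries and the IOP difference.

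Some other genes followed single members even more closely over the 12 libraries, among 12900 genes that averaged 1 FPKM or more. For Gad1 the 3 closest were Slc24a3 (r = 0.996), Pnmal2 (0.996) and Gabra3 (0.995). For Gad2 they were Ebf3 (0.996), Runx1t1 (0.996) and Map7d2 (0.995), and for Slc32a1 Cbln2 (0.994), Kcnab1 (0.992) and Mpp2 (0.991). Chat was followed by Nell1 (0.991), Atcay (0.988) and Gnai1 (0.987). Pax6 was followed by Vsnl1 (0.991) and Ralyl (0.987). Slc6a9 had looser neighbours, Dbndd1 at 0.975, Rnf208 at 0.972 and Ppp1r16b at 0.971, and Th the loosest, Tstd3 at 0.898, Frzb at 0.871 and Cbfa2t3 at 0.866. The closest genes to Slc18a3, Slc5a7 and Tfap2a were Gm5124 (0.985), Nova2 (0.986) and Prkce (0.982).

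Within each treatment, the question was whether the difference was seen without and with GCV. Without GCV no member passed the adjusted threshold, where 1.65% of all genes did. At an unadjusted p under 0.05 there were 5 members (Gad1, Gad2, Slc32a1, Slc6a9 and Chat), all lower, with 18.9% of all genes and 9.42% in that direction. The nearest to a call was Slc6a9, with a log2 fold change of -0.97 ± 0.26 (adjusted p = 0.101, limma). IOP and CTRL retinas did not overlap for 3 members (Slc6a9, Chat and Slc18a3, all lower), as for 8.81% of all genes. For the other 6 members that were lower, it was the IOP retina of mouse 4 that lay within the CTRL range. Without that library 5 members were called (Gad1, Gad2, Slc32a1, Slc6a9 and Chat), and 13.5% of all genes.

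With GCV no member passed either, where 1.8% of all genes did. At an unadjusted p under 0.05 there were 8 members, all but Slc32a1 and Chat, each lower, with 19.2% of all genes and 9.15% in that direction. The largest fold change was that of Gad1, -1.47 ± 0.51 (adjusted p = 0.163, limma), and the smallest adjusted p was that of Pax6 (-0.87 ± 0.25, adjusted p = 0.113). IOP GCV and CTRL GCV retinas did not overlap for 8 members, all but Chat and Slc5a7 and all lower, as for 15.3% of all genes. In both exceptions it was the IOP GCV retina of mouse 1 that lay within the control range.

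**Figure D3:**
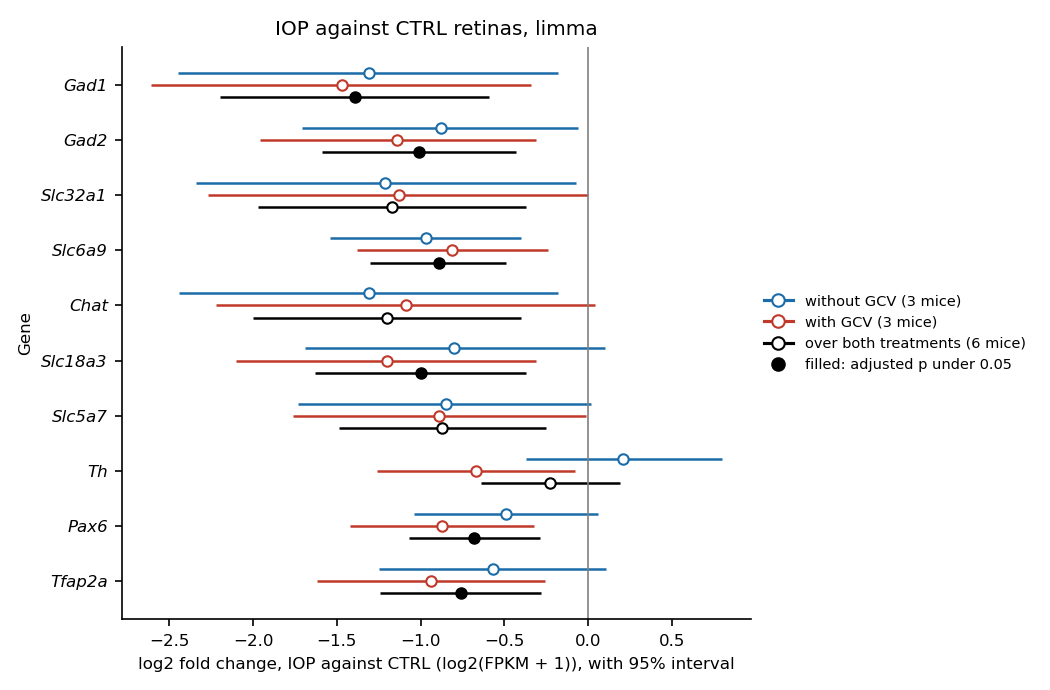
Log2 fold change of each member between IOP and CTRL retinas with its 95% interval by limma, without GCV (blue), with GCV (red) and over both treatments (black). Filled points passed an adjusted p of 0.05, which 6 members did over both treatments and none within a treatment. The blue and red intervals overlap for every member.

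The IOP difference of no member was called different between the treatments (interaction, 0 of 10, with 0% of all genes called). Of the 10 interaction terms, 7 were below 0 and 3 above. For Gad1 the term was -0.16 (95% interval -1.77 to 1.44), and for Chat it was 0.22 (-1.38 to 1.81), so differences of more than 1 on the log2 scale either way remain within the intervals. Only Th had an unadjusted p under 0.05, at -0.88 (-1.72 to -0.05, unadjusted p = 0.0392 and adjusted p = 0.997 by limma), where 1.93% of all genes did.

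In IOP retinas, GCV against no GCV gave no called member, with 0% of all genes called and 4.18% at an unadjusted p under 0.05, none of them a member. The members' log2 fold changes were between -0.37 (Th) and 0.48 (Chat), and no member's groups were without overlap, as 2.07% of all genes were in the lower and 2.68% in the higher direction. The interval for Pax6, the narrowest of the members, was -0.69 to 0.41, and that for Gad1 was -0.89 to 1.38. In CTRL retinas, GCV against no GCV likewise gave no called member, with 0% of all genes called and 1.59% at an unadjusted p under 0.05, none of them a member. Of the 10 members, 9 were higher with GCV, by up to 0.51 on the log2 scale (Th), and Slc6a9 was not (-0.07 ± 0.26). Gad1 and Pax6 were higher in all CTRL GCV than in all CTRL retinas, as were 6.01% of all genes, and no member was lower in all, as were 5.14%. These 2 groups are of different mice.

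The transmitter pathways around the members were followed over both treatments with lists chosen for their function. Earlier results of these data were known when the lists were chosen. Of all genes, 12.2% were called in this comparison (5.44% lower), and a higher share in a list is a description, not a test. Of 10 further genes that handle GABA, glycine and glutamate, 2 fell and none rose, with a list median of -0.63 (log2). Glul, the glutamine synthetase of Müller glia, fell by 1.28 ± 0.27 (adjusted p = 0.0174), and Slc6a5, the glycine transporter of glycinergic neurons, by 1.08 ± 0.31 (adjusted p = 0.0474, limma). Slc6a5 was low, at 1.85 to 2.97 FPKM in control retinas and 0 in the IOP retina of mouse 6. It no longer passed with the mouse as a block (adjusted p = 0.0573), a pseudocount of 0.1 (0.0523) or limma without the trend (0.0506), and passed in 2 of the 12 fits with 1 library left out, against all 12 for Glul.

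On the cholinergic side, 5 of 12 genes fell and none rose, and all 12 had fold changes below 0 (median -0.65). The called genes were the nicotinic receptor subunits Chrna6 (-1.94 ± 0.45, adjusted p = 0.0264), Chrnb3 (-1.72 ± 0.42, 0.0308), Chrna4 (-1.16 ± 0.29, 0.0333) and Chrnb2 (-0.84 ± 0.23, 0.0427) and the muscarinic receptor Chrm2 (-0.69 ± 0.18, 0.0375, all limma). Chrna6 and Chrnb3 are receptor subunits that ganglion cells carry, so these are receivers and not sources of acetylcholine. Chrm2 (adjusted p = 0.0502) and Chrnb2 (0.0532) did not pass with the mouse as a block. With 1 library left out, Chrna6 passed in 5 of 12 fits, Chrnb3 and Chrna4 in 3, Chrnb2 in 2 and Chrm2 in 1. Ache, which degrades acetylcholine, had -0.58 ± 0.25 (adjusted p = 0.145). None of the 6 further starburst genes passed (median -0.27). Isl1, which is also used by ganglion and bipolar cells, had -0.89 ± 0.31 (adjusted p = 0.0811), and Sox2, which Müller glia also use, had -0.04 ± 0.19 (adjusted p = 0.923).

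Of 14 genes of dopamine handling, 2 fell and none rose (median -0.18), near the share of all genes called in either direction. They were the dopamine receptor Drd2 (-1.07 ± 0.29, adjusted p = 0.0389) and Qdpr, which regenerates the cofactor of Th (-0.54 ± 0.13, adjusted p = 0.0255, limma). Drd2 passed in 3 and Qdpr in 7 of the 12 fits with 1 library left out. Pts, an enzyme that makes the same cofactor, was higher in the IOP retina of all 6 mice (0.35 ± 0.13) but did not pass (adjusted p = 0.0995). The photoreceptor dopamine receptor Drd4 had 0.23 ± 0.15 (adjusted p = 0.346).

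Of 16 further genes of amacrine identity and subtypes, 6 fell and none rose (median -0.79). Calb2, the calcium-binding protein calretinin of amacrine and ganglion cells, fell most, by 1.92 ± 0.43 (adjusted p = 0.0228). Gjd2, the connexin of the electrical synapses of AII amacrine cells, fell by 0.80 ± 0.16 (adjusted p = 0.0136), and Dab1, also used by AII cells, by 0.81 ± 0.22 (0.0416). Ebf3 (-1.13 ± 0.31, 0.0407), Slc17a8, the glutamate transporter of a glutamatergic amacrine type (-0.49 ± 0.13, 0.0382), and Nos1, of nitric oxide amacrine cells (-0.71 ± 0.20, 0.0465), were the others. The last 3 did not pass with the mouse as a block (adjusted p = 0.0536, 0.0745 and 0.087). With 1 library left out, Gjd2 passed in all 12 fits, Calb2 in 7, and Dab1, Ebf3, Slc17a8 and Nos1 in 2 each. Meis2 had -0.11 ± 0.13 (adjusted p = 0.589, limma). None of 8 amacrine neuropeptides passed (median -0.25), with Npy at -0.38 ± 0.23 (adjusted p = 0.305) and Penk at -0.02 ± 0.53 (0.986).

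**Figure D4:**
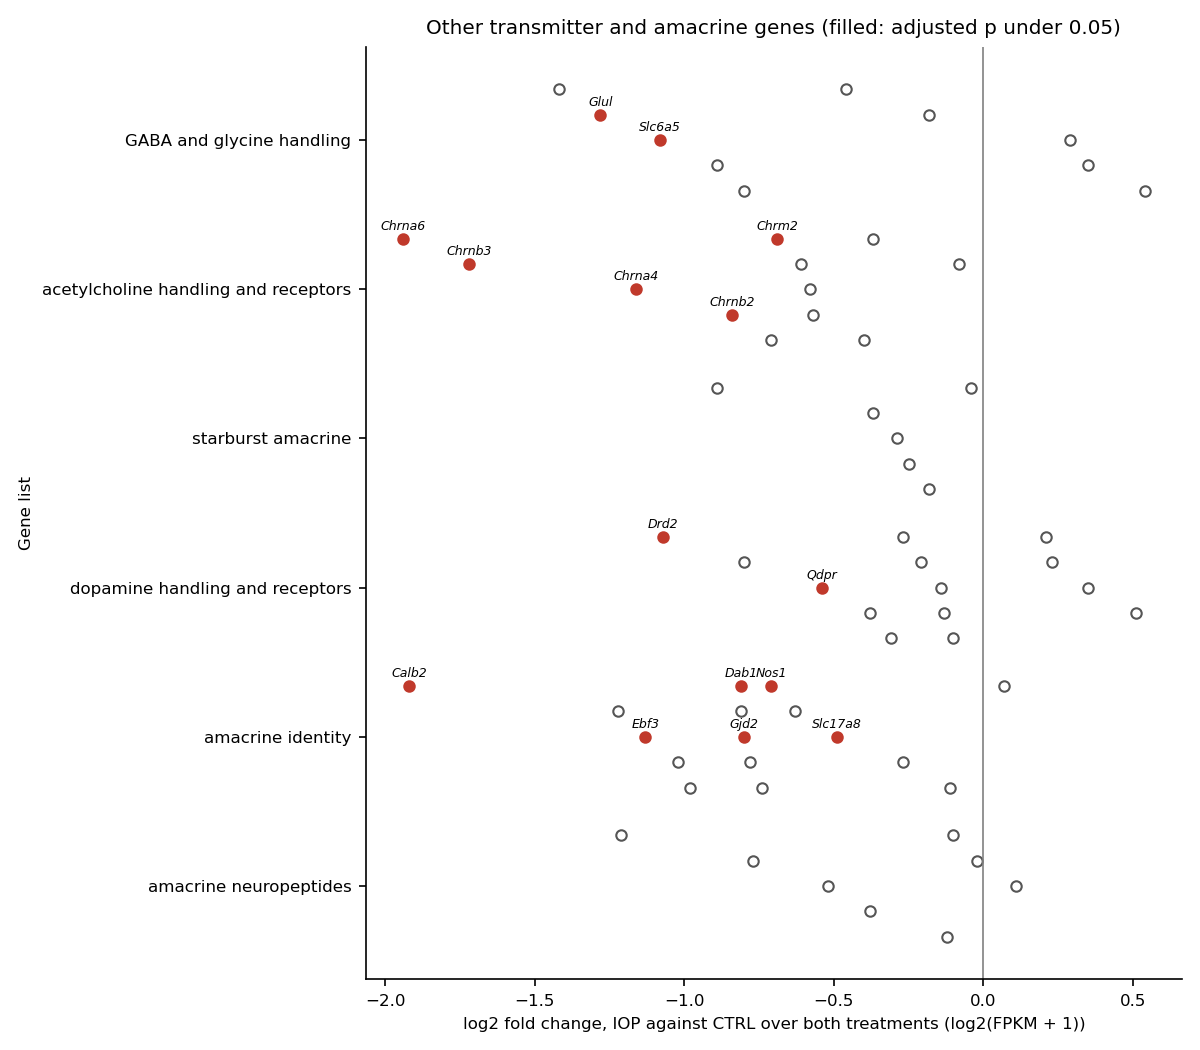
Log2 fold change between IOP and CTRL retinas over both treatments (horizontal axis) for the genes of 6 further transmitter and amacrine lists, with vertical offsets within a list only to separate points. Filled red points passed an adjusted p of 0.05 and are named, 15 genes in all, each below 0.

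Other cell types differed between the same retinas. Of all genes, 12.2% were called in this comparison (5.44% lower), and 7.3% with the mouse as a block. Of 11 ganglion cell genes 10 fell (median -1.27), with a summed level of 0.197 to 0.264% of all FPKM in CTRL, 0.0484 to 0.254% in IOP, 0.247 to 0.428% in CTRL GCV and 0.0761 to 0.167% in IOP GCV retinas. With the mouse as a block 4 of the 11 passed. Ganglion cells share Pax6 with amacrine cells. Of the horizontal cell genes 1 of 5 fell (median -0.45), of 9 bipolar genes none (-0.59) and of 9 rod genes none (-0.23). Among 8 Müller glia genes 1 fell and 2 rose (-0.13), and with the block none fell and 1 rose. Of 11 microglia and leukocyte genes 9 rose (median 2.37), from 0.012 to 0.0286% of all FPKM in CTRL and 0.0142 to 0.0204% in CTRL GCV to 0.142 to 0.252% in IOP and 0.0793 to 0.624% in IOP GCV retinas, none of them at 0 in any library. Of 14 lens genes 8 rose (median 3.21), with 0.0169 to 0.0326% in CTRL, 0.0705 to 1.64% in IOP, 0.0399 to 2.05% in CTRL GCV and 0.891 to 1.89% in IOP GCV retinas, and with the block 10 of the 14 rose. The 2.05% was the control retina of mouse 1, the highest of all retinas, against 0.0399 and 0.054% in the other CTRL GCV retinas. In mouse 1, 5 of the 14 lens genes were lower in the IOP retina. Lim2 was at 0 in both retinas of mouse 3 and Crybb1 in its CTRL retina. None of 9 pigment epithelium genes, 8 genes of cornea, iris and ciliary body or 6 blood genes passed. The IOP retina of mouse 3, one of the mice with large member differences, stood apart in the cornea, iris and ciliary body list, with none of its 8 genes lower than in the CTRL retina and a median of 1.92 (log2), against -0.47 to 0.54 in the other mice. That list held 0.0306% of all FPKM there, against 0.00345 to 0.00676% in CTRL and 0.0012 and 0.002% in the other IOP retinas, and 0.00188 to 0.00555% in CTRL GCV against 0.00712 to 0.0145% in IOP GCV retinas. The blood list was also highest in the IOP retina of mouse 3, at 0.115% against 0.00484 to 0.0547% in the other 11 retinas. The part of these other cells in the members' differences was not tested.

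The lists were also set side by side within each mouse. The median over the ganglion cell list was -0.03 in mouse 4 and -0.63 in mouse 1, and between -1.52 and -1.92 in the other 4 mice. Over the 16 amacrine identity genes it was -0.18 in mouse 4, -0.33 in mouse 1 and between -0.76 and -1.26 in the others. Mice 4 and 1 thus had the smallest differences in all 3 lists. The median of the microglia and leukocyte list was 1.76 to 2.97 in the 6 mice, 2.12 in mouse 4 and 1.87 in mouse 1. That of the lens list was highest in mouse 4, at 5.05, and lowest in mouse 1, at 0.55.

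**Figure D5:**
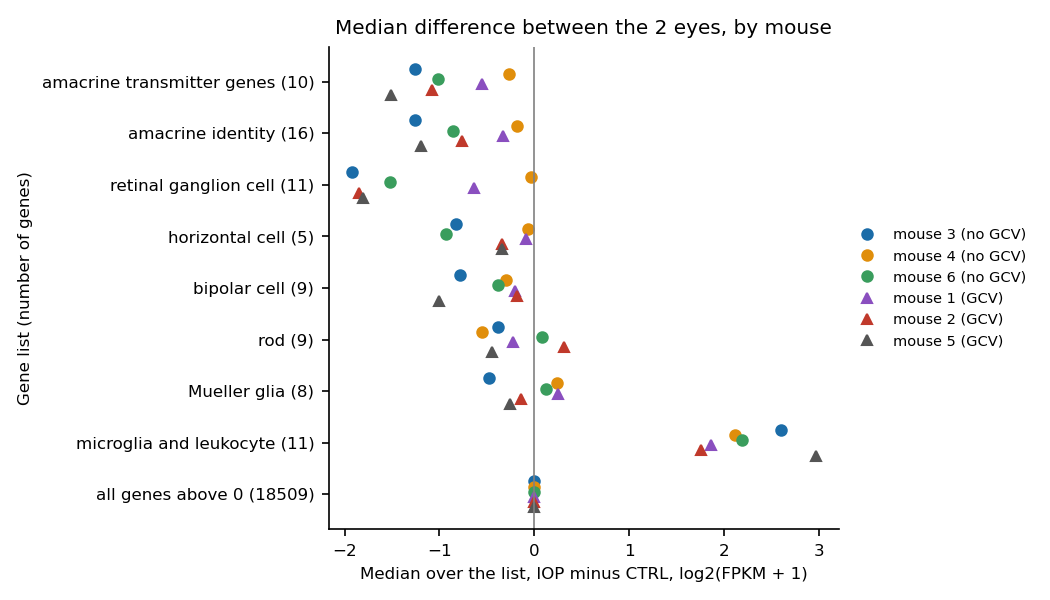
Median difference between the IOP and the CTRL retina (log2(FPKM + 1), horizontal axis) over the genes of each list (rows), 1 point per mouse, circles without and triangles with GCV. For the amacrine transmitter genes, points run from -1.51 (mouse 5) to -0.27 (mouse 4), and the median of all genes is at 0 in each mouse.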

How the data were processed

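RNA from both retinas of 6 mice was sequenced as paired reads from stranded mRNA libraries. The authors counted reads on exons of RefSeq genes with HOMER, while the submitters' processing notes name TopHat2, Bowtie2, Cufflinks, Cuffdiff and build mm10. The table as deposited holds FPKM values for 24340 rows and 12 libraries. The unit was read off the values, since no source names it, further scaling is not described, and 95.1% of the row names were RefSeq symbols. The 18509 genes above 0 in at least 1 library were analysed as log2(FPKM + 1), a pseudocount of 1 that understates fold changes of low genes, with limma 3.58.1 in R 4.3.3 (4 group means, variance trend, Benjamini-Hochberg adjustment at 0.05). Both eyes come from the same animal, so the mouse numbers pair the retinas, but this fit held no mouse term. Only the fit with the mouse as a block used the pairing. Same-numbered retinas deviated from their group means with correlations of -0.12 to 0.39. To estimate depth, low values were sought among 1904 genes with 1 transcript of 1500 bases or more. The depth taken put the largest share of values within 0.1 of a whole number of fragments, with 158 to 240 values used per library. Counting error could not be computed from counts. The members are those given by name. Further genes named are those called in an IOP comparison and the 2 most abundant of each transmitter or amacrine list, and the closest genes by Pearson's r. Some genes that this rule names are not reported here because they are withheld. The members and lists were chosen with earlier results of these data known, and 3 listed genes are not in the table. Retinas of a group are from separate mice. Promoter windows and gene positions are of RefSeq on GRCm38.p6, exon overlaps of GENCODE. Plots used matplotlib 3.10.9 and tables pandas 2.3.3 and numpy 2.4.6, in Python 3.11.15.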

Additional observations from a re-analysis of the deposited data

Results flagged for a closer look

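The IOP difference went one way in all mice without GCV and the other way in all mice with GCV for 3 of the 76 members and genes of the amacrine and transmitter lists. Of all 18509 genes, 0.978% split in this way. Th was higher in the IOP retina of the 3 mice without GCV (by 0.13, 0.08 and 0.44 on the log2 scale) and lower in the 3 with GCV (-0.92, -0.21 and -0.88). The response with GCV minus that without was -0.88 (adjusted p = 0.997 by limma). The level is low, at 0.287 to 2.495 FPKM. Sox2, a factor of starburst amacrine cells and Müller glia, was lower without GCV (-0.25, -0.07 and -0.88) and higher with GCV (0.41, 0.56 and 0.02), a difference of 0.73 (adjusted p = 0.997 by limma). Slc6a13, a GABA transporter of the GABA and glycine list that was named after its values were seen, was at 99.9, 32 and 49.8% of its CTRL level in the IOP retinas without GCV and above it in all 3 with GCV (log2 differences of 0.79, 0.12 and 2.48). The response with GCV minus that without was 1.68 (adjusted p = 0.997 by limma). Its level ranged from 0.4607 to 15.36 FPKM over the libraries, and from 1.438 to 15.36 FPKM within the CTRL retinas alone. None of the 3 differences passed the test.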

How the results depend on the processing

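The 6 members called over both treatments became 5 with a pseudocount of 0.1 (12.6% of all genes called) or with the mouse as a block (without Slc18a3 in both, 7.3% with the block), 6 with median-ratio scaling (12.5%) or without the trend (12.4%), and 9 with at least 1 FPKM in 3 or more libraries (19.7%) or at an unadjusted p under 0.05 (30.3%), which leaves out only Th. The block changed the call of no other member in the IOP comparisons. Leaving out 1 library gave 1 to 9 called members, with 4.51 to 24.5% of all genes. Leaving out a whole mouse was tried later, with the results in view. Without both eyes of mouse 6, the shallowest library, 1 member was called (Slc6a9, with 5.14% of all genes), and without both eyes of mouse 4 there were 9 (17.9%). Without GCV, the 0 called members became 5 at an unadjusted p under 0.05 (18.9%), 0 to 5 with 1 library left out (0.125 to 13.5%) and 1 without mouse 4 (1.67%). With GCV they became 8 at an unadjusted p (19.2%), and for the interaction 1 (1.93%). The cause of these changes was not tested.

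The sign of the interaction was not stable for 7 members. With 1 library left out it ranged from -0.24 to 0.73 for Chat, -0.49 to 0.46 for Gad1, -0.70 to 0.17 for Gad2, -0.69 to 0.05 for Slc18a3, -0.31 to 0.64 for Slc32a1, -0.41 to 0.35 for Slc5a7 and -0.13 to 0.46 for Slc6a9. Without mouse 6 it turned to -0.11 for Chat, -0.04 for Slc32a1 and -0.11 for Slc6a9, without mouse 4 to 0.36 for Gad1, 0.12 for Gad2 and 0.27 for Slc5a7, and with a pseudocount of 0.1 to 0.13 for Slc5a7. Over both treatments the fold change of Penk ranged from -0.44 to 0.25 and that of Sox2 from -0.18 to 0.14, with Sox2 at 0.08 without mouse 6.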
